A study of Mus musculus with 4 samples.

Results

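The probes described here carry RIKEN clone names and no RefSeq accession. They were taken by their annotation in the array files: a gene name ending in Rik, and a sequence identifier that is an AK accession, the form given to cDNA clone sequences. Of 55681 probes on the array, 1081 met this description, under 1053 names and from 1073 clones of 109 cDNA libraries. Of these, 717 probes (703 names) stood well above background in 2 or more arrays and were kept, and 364 were not. A difference could be tested for 716 of them, because 1 kept probe lacked a value on all arrays.

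RNA was measured after immunoprecipitation from lysate of cortex and hippocampus. The mice were C57BL/6, an inbred strain, all male and 8 weeks old. Lysate was incubated for 3 h with beads carrying CPEB3 IgG or control IgG, and 0.2 ug of recovered RNA per array was amplified with Cy3 label. Each antibody had 2 arrays, named replicates 1 and 2, and the labels leave unsaid if these were separate animals or lysates. A p-value here therefore reflects the spread of these arrays, and that spread may be technical. No input array was analysed here, so stronger precipitation and more of an RNA in the lysate cannot be told apart, nor can fewer cells of a type and less RNA per cell.

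RIKEN names were given to full-length cDNA clones sequenced from libraries of many mouse tissues and stages before their genes were known. Some clones later proved to be parts of protein-coding genes, others became annotated as long noncoding RNAs (lncRNAs), and some were never joined to a gene. CPEB3 is a cytoplasmic polyadenylation element binding protein that regulates translation of neuronal mRNAs. Proteins of this family bind U-rich elements, of which UUUUAU is the best known, in the 3′ untranslated regions of mRNAs.

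Some 60-base probes of members with large differences are shown first, because the probe is the identity of what was measured, above all for clones without a gene record. The members shown had no RefSeq probe on their strand within 10 kb. They are written 5′ to 3′ as DNA, in the sense of the clone, and capitals mark the cytoplasmic polyadenylation elements TTTTAT and the longer TTTTAAT, the polyadenylation signal AATAAA and its variant ATTAAA, and runs of TTTTT. The search covered the printed strand only. The first 4 probes were higher with CPEB3 IgG.
C530025M09Rik: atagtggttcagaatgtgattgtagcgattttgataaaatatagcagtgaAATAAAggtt
C030009O12Rik: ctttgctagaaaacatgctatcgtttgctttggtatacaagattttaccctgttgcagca
C230034O21Rik: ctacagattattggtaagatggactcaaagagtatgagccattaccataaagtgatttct
3021401L19Rik: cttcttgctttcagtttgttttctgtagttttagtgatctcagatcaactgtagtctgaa
The next 4 were lower with CPEB3 IgG. The last of them, 2410137F16Rik, was not above background on either CPEB3 IgG array and passed the filter through the control arrays alone.
E130118H10Rik: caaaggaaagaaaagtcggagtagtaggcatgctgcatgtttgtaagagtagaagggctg
4933405D12Rik: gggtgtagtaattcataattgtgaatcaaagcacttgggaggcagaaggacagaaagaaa
D230044B12Rik: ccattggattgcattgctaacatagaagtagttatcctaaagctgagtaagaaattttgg
2410137F16Rik: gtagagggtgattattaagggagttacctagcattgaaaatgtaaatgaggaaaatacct
U made up 33.3%, 36.7%, 30% and 46.7% of the letters of the first 4 and 20%, 20%, 31.7% and 26.7% of the next 4. On mm9, the build of the files, the 8 probes lie in that order at chr2:149654078-149654137 (minus strand), chr5:72540069-72540128 (plus), chr3:38776732-38776791 (minus), chr2:139499027-139499086 (minus), chr5:31874726-31874785 (plus), chr3:122567768-122567827 (minus), chr15:80663562-80663621 (plus) and chr5:116912715-116912774 (minus). Whether they fall in exons or introns was not analysed here. Among current RefSeq genes, C230034O21Rik, 4933405D12Rik and 2410137F16Rik are lncRNAs, and the other members shown have no entry.

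Each level below is log2 of the signal minus the 75th percentile of its array, so a level of 0 is the signal that 3 in 4 probes do not reach, and a difference is CPEB3 IgG minus control IgG. The 75th percentile of the signal was 353 to 507 units over the 4 arrays, and 68.0% to 73.5% of all probes were well above background. Within groups the arrays correlated at r = 0.986 (CPEB3 IgG) and 0.977 (control IgG), and between groups at 0.925 to 0.939, over probes, which are not independent replicates. Markers of neurons, astrocytes, oligodendrocytes, microglia and endothelium were well above background on all 4 arrays (6 of 6 neuronal genes and 4 of 4 in each other group), as were 3 of 3 red cell genes. Some of them differed between the antibodies: Slc1a3 (3.16) and Rbfox3 (0.70) were called higher with CPEB3 IgG, and Aldh1l1 (-3.03), Aif1 (-2.34) and Hba-a1 (-1.01) lower, on the log2 scale. Of 4 genes of tissues that should be absent, Alb and Prm1 were at or near background and Ins2 and Myh6 were above it.

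The members were mostly dim, and more were called lower than higher with CPEB3 IgG. Of 716 tested, 67 (9.36%) were called higher with CPEB3 IgG, against 15.8% of all 40616 probes tested, and 124 (17.3%) were called lower, against 18.9%. A call means an adjusted p under 0.05 in limma, with Benjamini-Hochberg adjustment over all probes. The median log2 difference of the members was -0.30, and that of all probes was -0.19. Both CPEB3 IgG arrays lay above both control arrays for 140 members, a pattern that 28.6% of all probes showed. They lay below both for 331 members, a pattern of 42.7% of all probes. These counts describe the members and were not tested as a set.

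Which direction had more calls differed between settings, for the members and for all probes. Higher calls made up 35.1% of the member calls with the 75th percentile, beside 45.5% of the calls over all probes. They made up 51.3% with quantile normalisation (53.8% over all probes), 49.4% with cyclic loess (52.2%) and 58.4% with median scaling (66.2%). With spike-in scaling they made up 83.7% (87.0% over all probes) and without scaling 20.5% (41.8%). At an adjusted p under 0.01, with the scaling unchanged, they made up 67.7%, beside 57.6% over all probes. Scaling on the median moved the median of all probes from -0.19 to 0.098 and scaling on the spike-in moved it to 0.52. The median of the members minus that of all probes was -0.11 under both. These settings shift all probes alike, so they could not change that gap. Settings that can change it gave -0.029 (normexp background correction), -0.035 (quantile normalisation) and -0.033 (cyclic loess).

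**Figure D1:**
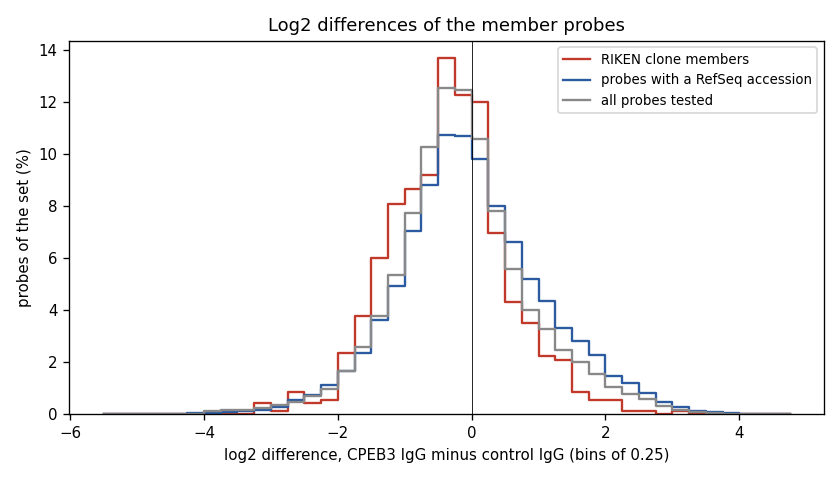
Share of probes (%) in bins of 0.25 of the log2 difference, CPEB3 IgG minus control IgG, for the 716 members, the 22999 tested probes with a RefSeq accession and all 40616 tested probes. The members peak below 0, with a median of -0.30, and thin out above 1, where the RefSeq probes have a wider shoulder.

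Other kinds of probe gave a scale for these shares. Among probes with an NM accession, the RefSeq form for mRNAs, 22.6% were called higher and 20.1% lower, and among those with an NR accession, the form for noncoding RNAs, 9.71% and 14.6%. RIKEN names that do have a RefSeq accession were called higher in 15.4% and lower in 16.6% of 1154 probes. AK clones with another kind of name gave 9.25% and 17.2% of 941 probes, and probes named only by a genomic interval 5.81% and 15.2%. The shares of the members thus lay beside those of the NR probes and of other AK clones.

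Signal level moved with these shares. The median level was -2.63 for the members, -2.28 for NR probes and -0.27 for NM probes. Among members with a mean level of -1 or above, 27.3% of 143 were called higher and 18.2% lower, beside 26.9% and 22.8% of all probes in that range. Between -3 and -1, 8.37% of 263 members were called higher, beside 9.81% of all probes, and between -5 and -3, 1.99% of 302, beside 4.10%. Of 8 members below -5, 2 were called lower and the others were not called, and of all probes in that range 10.1% were called higher and 41.6% lower. The higher shares of members and of all probes were close at -3 and above and further apart between -5 and -3. The part of level in the lower count of higher calls was not tested further.

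**Figure D2:**
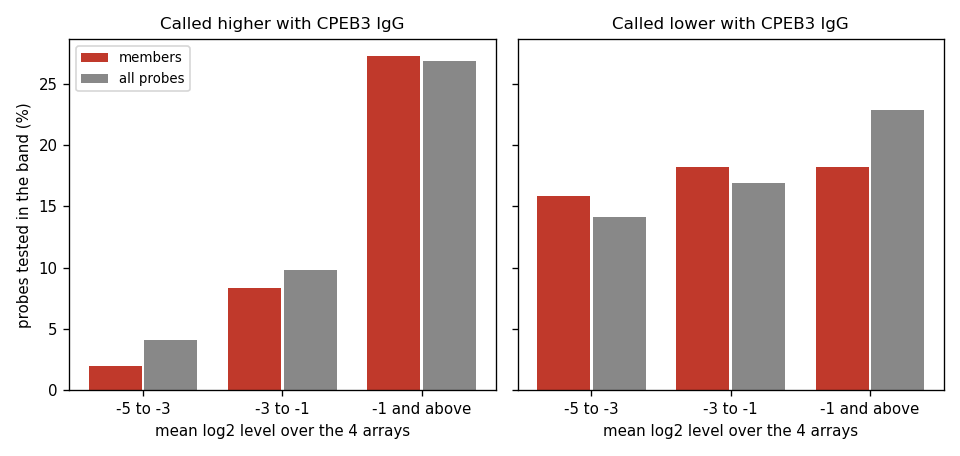
Percent of tested probes called higher (left) or lower (right) with CPEB3 IgG, in 3 bands of mean log2 level over the 4 arrays, for members and for all probes. Higher calls make up 1.99% of the members in the dimmest band shown, beside 4.10% of all probes, and 27.3% in the brightest, beside 26.9%; the 8 members below -5 are not drawn.

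Detection also differed between the antibodies. With control IgG, 67.3% and 67.4% of the 1081 members were well above background in replicates 1 and 2, and with CPEB3 IgG 61.2% and 57.4%. For all probes the corresponding values were 73.5% and 73.2%, and 70.0% and 68.0%. There were 43 members above background on both control arrays and on neither CPEB3 IgG array, and 3 with the opposite pattern. The 43 passed the filter through the control arrays alone, and they hold 19 of the 124 lower calls. At the edge of the filter, 91 members were above background on 1 array, with mean levels from -6.28 to -4.16, and 74 on exactly 2 arrays, from -5.46 to -3.60.

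The 12 members with the largest higher calls among those measured on all 4 arrays ranged from a 3.06-fold to an 8.09-fold difference. Their levels spanned -2.97 to 3.36, so they were not confined to bright probes. Of these, 8 had no entry among current RefSeq genes, 3 were protein coding and 1 was a lncRNA. All 12 had CPEB3 IgG levels above control levels on each array, as the choice of this list required. Of the 12, 11 kept the call in all 18 alternative settings. C230034O21Rik lost it without CPEB3 IgG replicate 2 (limma adjusted p 0.0518).

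**Figure D3:**
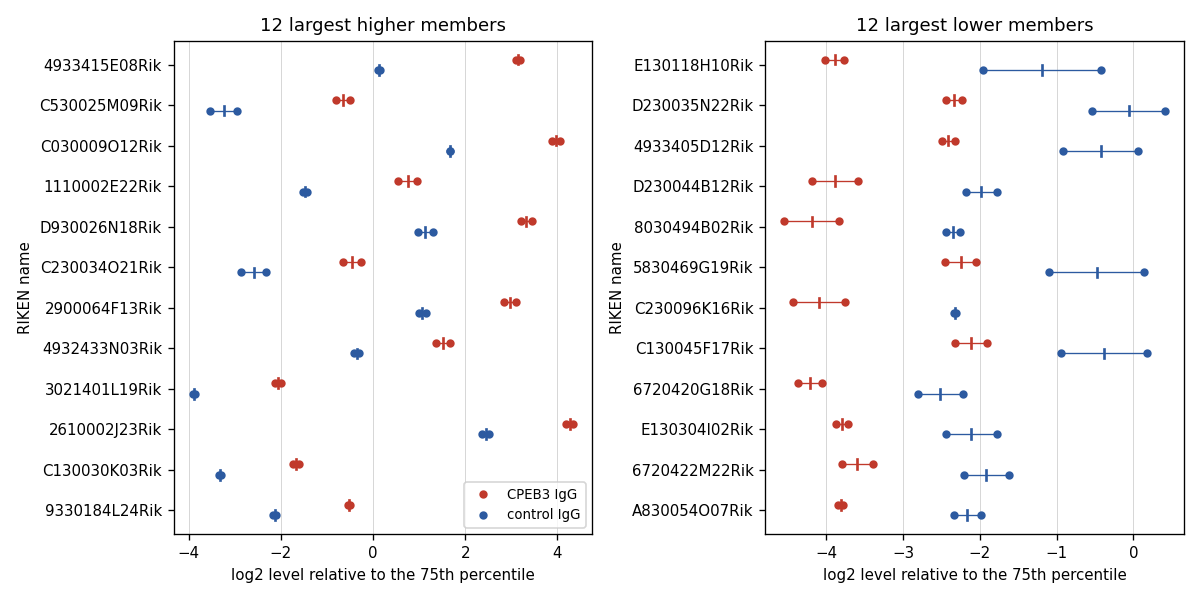
Log2 level of each array relative to the 75th percentile, for the 12 largest higher members (left) and the 12 largest lower members (right). Circles are the 2 arrays of a group, joined by a line, and the tick is their mean. Both lists were limited to called members whose groups did not overlap. On the left the groups are tight and far apart, and on the right the 2 control arrays are often spread widely, as at -0.42 and -1.95 for E130118H10Rik.

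4933415E08Rik, a clone from adult testis with no entry in the RefSeq table, had the largest difference. Its levels were 3.19 and 3.10 with CPEB3 IgG, against 0.15 and 0.11 in the controls. Both precipitates with CPEB3 IgG were far above both controls, by 3.02 ± 0.16 (log2, SE), or 8.09-fold (limma adjusted p 0.0053). The probe lies at chr12:34061137-34061196 on the plus strand, 8058 bases 3′ of a probe for Atxn7l1, which encodes an ataxin 7 like protein. That Atxn7l1 probe gave a log2 difference of -0.55 and was not called (adjusted p 0.14).

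C530025M09Rik, from embryonic spinal cord and without an entry, had levels of -0.79 and -0.51 with CPEB3 IgG, against -3.53 and -2.96 with control IgG. The difference was 2.59 ± 0.27, or 6.03-fold (adjusted p 0.0064). C030009O12Rik, from adult corpora quadrigemina, was brighter, with levels of 4.07 and 3.89 against 1.66 and 1.68. Its difference was 2.31 ± 0.16, or 4.95-fold (adjusted p 0.0053). Neither had a RefSeq probe on its strand within 10 kb. On the opposite strand the nearest RefSeq probe to C030009O12Rik was for Commd8, a COMM domain gene, 8287 bases away, with a log2 difference of 0.75.

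C230034O21Rik, a lncRNA from neonatal cerebellum, had levels of -0.64 and -0.25 with CPEB3 IgG, against -2.87 and -2.32 with control IgG. The groups were apart by 2.14 ± 0.27, with the widest control spread of these 12 after C530025M09Rik. 3021401L19Rik, from adult diencephalon, was dim, with levels of -2.13 and -1.99 against -3.86 and -3.91. Its arrays agreed closely within groups, and the difference was 1.83 ± 0.16, or 3.55-fold. 2900064F13Rik, from adult hippocampus, had levels of 2.84 and 3.11 against 1.00 and 1.14 and differed by 1.90 ± 0.18.

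2610002J23Rik was measured by a pair of probes 900 bases apart on the minus strand of chromosome 11, from separate clones, and both were called higher. The brighter probe had levels of 4.19 and 4.35 with CPEB3 IgG, against 2.38 and 2.53 with control IgG, a difference of 1.82 ± 0.17. The other had 1.79 and 1.34 against 0.43 and 0.35, a difference of 1.18 ± 0.22. Both pairs of groups were apart, and the probes differed in size of effect by 0.64. The second probe lost the call without CPEB3 IgG replicate 1, without either control replicate in turn, without scaling and at an adjusted p of 0.01. The nearest RefSeq probe on the strand, for the kelch-like gene Klhl11, lay 5260 bases 5′ of it and gave -0.61 (adjusted p 0.055).

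Some of the higher clones are placed in protein-coding genes by the RefSeq table, and those given here were in part chosen after their values were seen. D930026N18Rik is now placed in Cacna1c, which encodes the pore-forming subunit of an L-type calcium channel. Its levels were 3.44 and 3.21 with CPEB3 IgG, against 1.30 and 0.97 with control IgG, a difference of 2.19 ± 0.20 (adjusted p 0.0057). C130030K03Rik is placed in Grik2, which encodes a kainate-type glutamate receptor subunit, and had levels of -1.74 and -1.60 against -3.31 and -3.35, a difference of 1.66 ± 0.16. 6330509M05Rik, in the sodium/proton exchanger gene Slc9a7, had 3.02 and 2.79 against 1.66 and 1.39, a difference of 1.38 ± 0.19. In each of these the CPEB3 IgG arrays lay above both controls.

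These clones lay 3′ of the probes that the array carries for the same genes under a RefSeq accession. The Cacna1c RefSeq probe, 6763 bases 5′ of the clone's probe, was dim (level -4.21) and gave -0.0071. For Grik2, the RefSeq probes lay 6075 and 430340 bases 5′ and gave 0.31 and -0.51, and for Slc9a7 they lay 6857 and 63253 bases 5′ and gave 0.13 and -0.20. None of these 5 RefSeq probes was called. 4833420G11Rik, in Gid8, a subunit of an E3 ubiquitin ligase complex, was called higher by 1.34 ± 0.20, while the 2 RefSeq probes of Gid8, 3159 and 6664 bases 5′, gave -0.26 (not called) and -1.38 (called lower). B230343J05Rik, in the fibroblast growth factor gene Fgf12, gave 1.12 ± 0.18, beside 0.99 (called higher) at 2345 bases and -0.73 (called lower) at 31737 bases. 4833420G11Rik and 6330509M05Rik lost the call without CPEB3 IgG replicate 1, with adjusted p of 0.063 and 0.064. B230343J05Rik lost it without either CPEB3 IgG replicate in turn and without control replicate 2.

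The same layout was then counted over all members, a description added after these values were seen. On the same strand within 10 kb, 87 members lay 3′ of their nearest tested RefSeq probe and 40 lay 5′ of it. Of the 87, 20 (23.0%) were called higher and 9 (10.3%) lower. Of the 40, 1 (2.5%) was called higher and 5 (12.5%) lower, and of all probes tested 15.8% and 18.9%. The 87 include the clones that prompted the count. The member's difference exceeded that of its RefSeq probe in 55 of the 87 pairs, with a median gap of 0.37, and in 20 of the 40, with a median gap of 0.018. The 3′ members were also brighter (median level -1.31 against -2.44) and richer in U (median 31.7% against 28.3%), and the part of these in the counts was not tested.

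**Figure D4:**
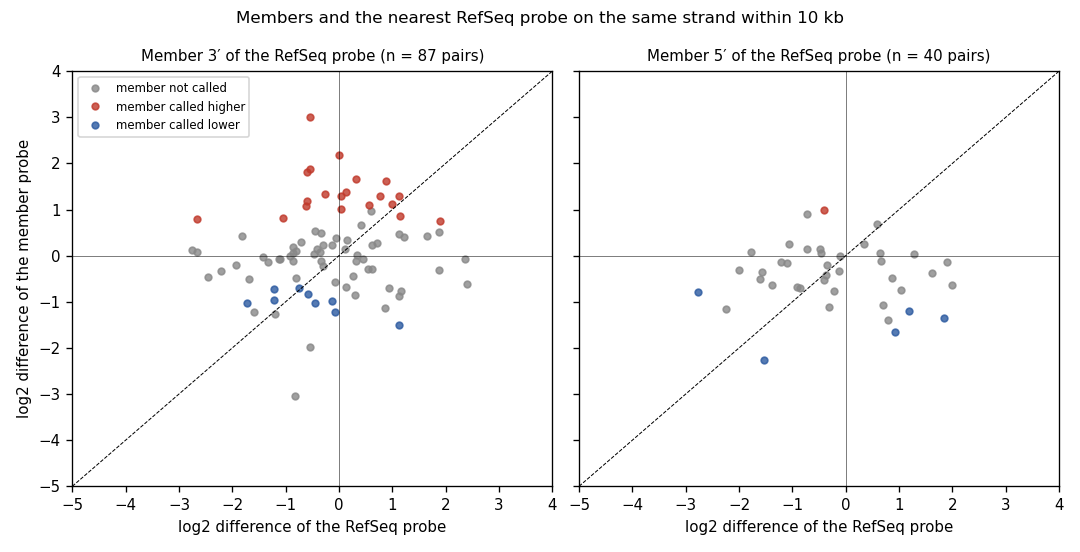
Log2 difference of each member against that of the nearest tested RefSeq probe on the same strand within 10 kb, for 87 members lying 3′ of that probe (left) and 40 lying 5′ of it (right). Colours give the call of the member, and the dashed line marks equal differences. The 20 higher members on the left spread over RefSeq values on both sides of 0, and 1 higher member is on the right.

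Pairs joined by a shared name or current symbol gave 67 comparisons over 48 names, and few were called alike. In 1 pair both probes were called higher and in 0 both lower by limma (2 at an unadjusted p under 0.05), 4 pairs were called in opposite directions, in 14 only the member was called and in 22 only the RefSeq probe. Where the member lay 3′ of the RefSeq probe on the same strand, at any distance, its difference was the larger in 31 of 42 pairs, with medians of 0.29 for members and -0.64 for RefSeq probes. Where it lay 5′, it was the larger in 8 of 21 pairs, with medians of 0.068 and 0.096. Some members recur in several pairs. The 67 pairs also include some whose probes lie on opposite strands. D530017H19Rik and Syvn1, called in opposite directions, are such a pair. The probes of 4930571B16Rik and Samsn1 lie on different chromosomes.

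Among the 12 largest higher members, 6 had a RefSeq probe on their strand within 10 kb, and in all 6 the member was the 3′ one. Besides 4933415E08Rik, 2610002J23Rik and the clones in Cacna1c and Grik2, these were 4932433N03Rik and 9330184L24Rik. 4932433N03Rik had levels of 1.67 and 1.38 with CPEB3 IgG, against -0.41 and -0.30 with control IgG, a difference of 1.88 ± 0.19. It lay 3106 bases 3′ of a probe for Prdm10, a zinc finger gene, which gave -0.54 and was not called. A member on the other strand 3426 bases away, 1700023A20Rik, gave -0.29 ± 0.15 and was not called either. 9330184L24Rik had levels of -0.49 and -0.55 against -2.11 and -2.16, a difference of 1.61 ± 0.15, and lay 4446 bases 3′ of a probe for Pabpc5, a poly(A)-binding protein gene, which gave 0.89 (adjusted p 0.13).

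The largest lower calls were less firm than the higher ones. The 12 largest on all 4 arrays ranged from a 3.13-fold to a 6.49-fold difference, and 10 had no entry in the RefSeq table. The median SD between the 2 control arrays was 0.44 for them, beside 0.064 for the 12 higher members. The lower members were all dim, with levels from -3.36 to -1.20, where the 12 higher members spanned -2.97 to 3.36. The part of level in this was not tested. Every one of the 12 lower members lost the call in 2 to 9 of the alternative settings. One of these, spike-in scaling, moves every difference upward, so it weighs against lower calls and cannot compare the 2 lists. Leaving out CPEB3 IgG replicate 1 or replicate 2 ended 10 of the 12 calls each, leaving out control replicate 1 ended 2, and spike-in scaling ended 10.

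E130118H10Rik, from neonatal eyeball, had levels of -3.76 and -4.01 with CPEB3 IgG, against -0.42 and -1.95 with control IgG. Both controls were higher but far from each other, and the difference was -2.70 ± 0.55 (adjusted p 0.025). D230035N22Rik, from adult hypothalamus, had -2.43 and -2.23 against -0.54 and 0.41, a difference of -2.27 ± 0.36. It lay 2059 bases 5′ of a probe for Psmd11, a proteasome subunit, which was called lower as well (-1.53). E130118H10Rik and D230035N22Rik were the only 2 of the 12 to keep the call with spike-in scaling, at -1.98 and -1.55, and both lost it without either CPEB3 IgG replicate in turn (adjusted p 0.066 to 0.108).

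4933405D12Rik, a testis clone now listed as a lncRNA, had levels of -2.32 and -2.49 with CPEB3 IgG, against 0.061 and -0.92 with control IgG. The groups did not overlap, and the difference was -1.98 ± 0.37, with the call lost without either CPEB3 IgG replicate (adjusted p 0.090 and 0.094). D230044B12Rik, from embryonic eyeball, had -3.58 and -4.19 against -1.78 and -2.18, a difference of -1.91 ± 0.29, and lost the call without CPEB3 IgG replicate 2 (0.053). Other members of the 12 were 8030494B02Rik (-1.84), 5830469G19Rik and C230096K16Rik (both -1.77), C130045F17Rik (-1.72), 6720420G18Rik (-1.69), E130304I02Rik and 6720422M22Rik (both -1.68) and A830054O07Rik (-1.64). A RefSeq probe that shares the name E130304I02Rik lay 896 bases from the member on the opposite strand. That probe was brighter (level 4.63, against -2.95 for the member), gave -0.27 and was not called. A830054O07Rik, with levels of -3.77 and -3.84 against -1.99 and -2.34, lies between probes of Pou2f1, an octamer-binding transcription factor gene, and the Pou2f1 probe nearest to it was called higher (0.93).

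Members not above background on either CPEB3 IgG array have only a bound. They passed the filter through the control arrays alone, where they are high, so that their lower calls follow in part from the filter and are given as a description. For these, the control mean was set against the mean, per CPEB3 IgG array, of the higher of the probe's own signal and the lowest signal well above background. Such a bound allows for background only and leaves out the spread between arrays. 2410137F16Rik is now Srrm4os, an RNA opposite to the gene of the neuronal splicing factor Srrm4, and had levels of -4.79 and -4.49 with CPEB3 IgG, against -2.30 and -3.04 with control IgG. It was at least 3.86-fold lower with CPEB3 IgG (adjusted p 0.014), and the call was lost without either CPEB3 IgG replicate in turn (0.079 and 0.060). The bounds of 1700060J05Rik, 9130002K18Rik and 4933430A20Rik were at least 2.71-fold, 2.56-fold and 1.57-fold lower. 1700060J05Rik lost the call without either CPEB3 IgG replicate in turn and without control replicate 1, 9130002K18Rik lost it without CPEB3 IgG replicate 2 and without control replicate 1, and 4933430A20Rik kept it without each of the 4 arrays in turn. 4933430A20Rik lost it with normexp background correction, where the difference was -0.38 in place of -2.27, with quantile normalisation and at an adjusted p under 0.01. 1700060J05Rik also lost its call with normexp, quantile normalisation, median scaling, cyclic loess, spike-in scaling, no filter on dim probes and at that adjusted p. 9130002K18Rik did so with quantile normalisation, cyclic loess and at that adjusted p, and 2410137F16Rik with spike-in scaling and at that adjusted p.

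The clones were also counted by their class in a current annotation. The RefSeq table of GRCm38.p6, used for names only, matched 402 of the 1081 members by symbol and 72 by an older symbol, and 607 had no entry. Of the 55 tested members in protein-coding genes, 12 (21.8%) were called higher and 4 (7.27%) lower, with a median of 0.12. Of 233 lncRNAs, 14 (6.01%) were higher and 24 (10.3%) lower, with a median of -0.25. Of 419 without an entry, 39 (9.31%) were higher and 93 (22.2%) lower, with a median of -0.47. The shares of all probes were 15.8% higher and 18.9% lower, and differences between the classes were not tested. The median levels of the groups were close, at -2.50, -2.83 and -2.59.

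The lncRNAs with a known name given next were chosen after their values were seen. 1700020I14Rik, or Oip5os1, also known as Cyrano, had levels of 0.73 and 1.02 with CPEB3 IgG, against 0.11 and 0.23 with control IgG. It was the higher call nearest the threshold, at 0.71 ± 0.19 (adjusted p 0.047), and it lost the call without any 1 of the 4 arrays. Both probes of C230004F18Rik, or Cdr1os, the host of the circular RNA Cdr1as, were below control in mean, at -0.38 ± 0.20 and -0.93 ± 0.34, and neither was called. Since a linear and a circular RNA of that locus were not separated here, nothing is given for the circular form. The Mir100hg clones 2610203C20Rik and D230004N17Rik gave -0.30 ± 0.19 and -0.45 ± 0.17, and 2900056M20Rik, or Kantr, gave -2.04 ± 0.57 (adjusted p 0.055) with a dim probe (level -4.52). A brighter RefSeq probe of the same lncRNA (level 1.97), 20485 bases away on the same strand, was called higher by 1.65 ± 0.16 (adjusted p 0.0058). 5730422E09Rik, or Mm2pr, was called lower by -1.15 ± 0.26 (adjusted p 0.033), and lost the call in 10 alternative settings, among them without CPEB3 IgG replicate 1, without either control replicate in turn and with spike-in scaling. 2810008D09Rik, or Snhg20, was at background on both CPEB3 IgG arrays and was not called. A430071A18Rik, or Rptoros, was not above background on either CPEB3 IgG array, so it too passed the filter through the control arrays alone. It had a bound of 1.65-fold lower, which leaves out the spread between arrays. Its call was lost in 11 alternative settings. Among them were leaving out either CPEB3 IgG replicate in turn or control replicate 2, quantile normalisation and no filter on dim probes.

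1110006E14Rik, without an entry in the table, had both of its probes called lower. One had levels of 0.23 and 0.20 with CPEB3 IgG, against 1.21 and 1.13 with control IgG, and the other -0.62 and -0.47 against 0.074 and 0.28. The differences were -0.96 ± 0.16 and -0.72 ± 0.18. The clones lie on chromosome 12 beside 6430411K18Rik, a noncoding RNA whose own RefSeq probe was also called lower (-1.22), and opposite the retrotransposon-like gene Rtl1. With spike-in scaling the 2 probes gave -0.24 and -0.0078 and were not called, and without CPEB3 IgG replicate 1 or 2 or control replicate 1 neither was called. The second also lost the call without control replicate 2.

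The source library of a clone tells where its RNA was once found, and members from brain were detected most often. Of 230 clones from brain or nervous tissue libraries 79.1% were kept, of 182 from embryos 75.8%, of 49 from eye 77.6%, of 92 from immune tissues 64.1%, and of 297 from testis 49.8%. Among tested members, 23 of 182 brain clones (12.6%) were called higher and 31 lower, and 10 of 147 testis clones (6.80%) higher and 16 (10.9%) lower. Immune clones had 2 higher and 15 lower (25.4%) calls of 59, and eye clones 3 and 11 (28.9%) of 38. Of these 11 lower calls, 7 were among 13 tested clones of the 12 days embryo eyeball library. Adult retina had 2 lower calls of 13 and neonate eyeball 2 of 12. Other libraries of 12 days embryos also had lower calls. These were 5 of 12 tested clones from spinal ganglion, 5 of 8 from wolffian duct and 3 of 10 from the body between diaphragm and neck. Smaller libraries of that stage are not given here. Over all probes, 15.8% were called higher and 18.9% lower, and differences between tissues were not tested. The medians were -0.25 for brain, -0.24 for testis, -0.45 for embryo, -0.63 for immune and -0.58 for eye. Of the 12 largest higher members 6 came from brain libraries, and of the 12 largest lower members 2 did.

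**Figure D5:**
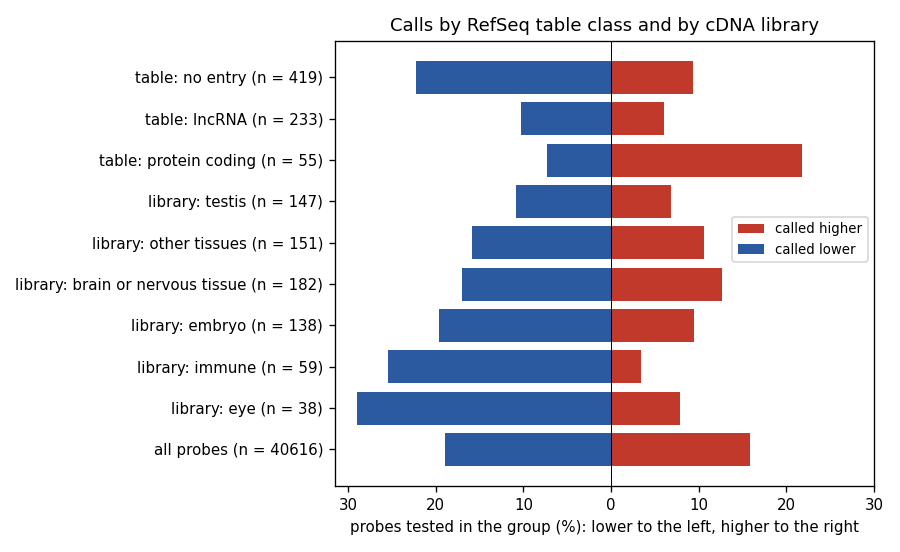
Percent of tested members called lower (left of 0) or higher (right of 0), by class in the RefSeq table and by tissue of the cDNA library, with all probes for scale; n is the number tested. Protein-coding members have the longest bar to the right (21.8%), and eye and immune libraries the longest to the left (28.9% and 25.4%).

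Of the 6 brightest members, all but the sixth were called lower, with differences from -0.64 to -1.02. This does not hold for bright members in general. Of the 143 at a level of -1 or above, 27.3% were called higher and 18.2% lower, beside 26.9% and 22.8% of all probes there. 4930449A18Rik, a testis clone at chr3:59643782-59643841, had levels of 7.14 and 7.10 with CPEB3 IgG, against 7.69 and 7.84 with control IgG, a difference of -0.64 ± 0.16 (adjusted p 0.042). 4933431I19Rik had 7.09 and 7.01 against 7.71 and 7.72, a difference of -0.66 ± 0.16. With spike-in scaling both changed sign, to 0.071 and 0.053, so their direction rests on the scaling, and neither was called without any 1 of the 4 arrays. 4931402H11Rik (-1.02 ± 0.18), A530083I20Rik (-0.88 ± 0.20) and 1700028B04Rik (-0.95 ± 0.16) were called lower too, and each lost the call with spike-in scaling and without either CPEB3 IgG replicate in turn. A530083I20Rik and 1700028B04Rik also lost it without either control replicate, and 4931402H11Rik without control replicate 2.

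A530030E21Rik, the sixth in brightness, was not called and shows how far a probe can vary within a group. Its levels were 5.84 and 6.30 with CPEB3 IgG, against 4.61 and 6.52 with control IgG, so the controls enclosed both CPEB3 IgG values. The first part of its probe is a long CA repeat, a simple repeat found at many places in the genome, and the probe is printed here for that reason.
A530030E21Rik: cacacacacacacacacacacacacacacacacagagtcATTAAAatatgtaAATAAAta
Of the other bright members that did not pass, A830073O21Rik gave -0.14 (95% interval -0.66 to 0.39), C230098O21Rik -0.15 (-0.63 to 0.34) and 6230415J03Rik 0.38 (-0.15 to 0.90). These intervals leave room for differences of up to 0.90 in size.

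One RIKEN name covered probes that moved apart. The 2 probes of 2610209C05Rik lie on opposite strands of chromosome 6, the first at chr6:54763825-54763884 and the second at chr6:54795954-54796013, and are shown because a single name hides 2 different sequences.
2610209C05Rik, minus strand: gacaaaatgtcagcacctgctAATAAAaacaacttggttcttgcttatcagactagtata
2610209C05Rik, plus strand: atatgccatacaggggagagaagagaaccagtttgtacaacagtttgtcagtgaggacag
The minus strand probe had levels of -1.73 on both CPEB3 IgG arrays and -3.17 and -3.18 with control IgG, a difference of 1.44 ± 0.15. It was called higher in all 18 alternative settings, with differences from 0.81 to 2.16. The plus strand probe had -4.17 and -4.68 against -0.51 and -2.26, and was called lower by -3.04 ± 0.64, with 1 of the CPEB3 IgG arrays at background. Its call was lost without either CPEB3 IgG replicate in turn. Of 14 names with several tested probes, this was the only one with calls in both directions, 2610002J23Rik the only one with 2 higher calls and 1110006E14Rik the only one with 2 lower calls.

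The RefSeq table can also join a clone to a gene on the wrong strand. D530017H19Rik is a synonym of Syvn1, which encodes an E3 ubiquitin ligase of the endoplasmic reticulum, but its probe lies on the other strand, 8455 bases from a Syvn1 probe. The member was called lower by -0.69 ± 0.18 and the Syvn1 probe higher by 1.43. On the member's own strand the nearest RefSeq probe, for the mitochondrial ribosomal protein Mrpl49, was called lower (-0.74). The member's call is weak: it was lost without any 1 of the 4 arrays, and spike-in scaling turned the value to 0.022.

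Probes of higher members were richer in U than those of lower members. The median U content was 33.3% in members called higher, 28.3% in those called lower and 30% in those not called, and over all probes it was 31.7%, 25% and 28.3%. TTTTAT occurred in 7 of 67 higher members (10.4%), 3 of 124 lower members (2.42%) and 17 of 525 not called (3.24%). The shares over all probes were 8.35%, 2.08% and 3.06%. TTTTT occurred in 28.4%, 9.68% and 12.6% of the members, and such a run can overlap a TTTTAT match. Over all probes it occurred in 20.9%, 5.49% and 9.65%. TTTTAAT was rare, in 7 of 716 members. The polyadenylation signal AATAAA was in 20.9%, 12.1% and 18.5% of the members, and ATTAAA in 5.97%, 4.84% and 9.14%. Over all probes AATAAA was in 14.8%, 10.2% and 10.3%, and ATTAAA in 5.64%, 3.89% and 3.73%.

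Members and all probes were then counted in ranges of U content. At 35% U or more, 26 of 225 members (11.6%) were called higher and 27 lower, beside 25.4% and 9.93% of all such probes. Below 20% U, 0 of 38 members were called higher by limma (0 at an unadjusted p under 0.05) and 9 lower, beside 6.04% and 29.3% of all such probes. The members of the U-rich range had a median level of -2.46 and all such probes -1.01, and the part of U content and of level in these shares was not tested. A probe shows 60 bases of a longer RNA, and a match is a run of letters, not a binding site.

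The members just outside the threshold were similar to those just inside it. 1700071A11Rik, the nearest uncalled member with a positive difference, gave 0.62 ± 0.17 (adjusted p 0.0513), and 4930421J07Rik, the lower call nearest to it, gave -0.64 ± 0.17 (0.0490), while A730093L10Rik, with -1.28 ± 0.35 (0.0513), was not called. 4930421J07Rik changed sign with spike-in scaling (0.075) and lost the call without any 1 of the 4 arrays.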

How the data were processed

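Per the file headers, the authors' deposited intensity values are 1-colour spot signals from Agilent Feature Extraction 10.5.1.1, background-subtracted within each array and not scaled between arrays; deposited mean and background intensity values were used for an alternative. Control and outlier spots were left out, spots of a probe were averaged on the log2 scale, and the 75th percentile over probes was subtracted. The percentile over spots had been run first, and its counts were known when the one over probes was adopted. Differences were fitted on all 40616 probes with limma 3.58.1 in R 4.3.3 (lmFit, eBayes, no block), with Benjamini-Hochberg adjustment. In a simulation of this comparison on 40616 probes with 200 changed, the fit recovered 1 of the 50 changed 1.5-fold, 0 of the 50 changed 2-fold, 25 of the 50 changed 4-fold and 42 of the 50 changed 8-fold. That run gave 4 false calls. With as many probes changed as were called here (14111, each 2.40-fold), it recovered 92.6%, with 439 false calls. The number and the fold of that second run were taken from the calls of this fit. Its recovery therefore does not tell how many real changes were missed here.

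The members, groups and lists were chosen with earlier results of these data known. Named members are the 12 largest calls each way on all 4 arrays with groups apart, 1 probe per name; up to 4 each way at background in 1 group; the 6 brightest and the 4 brightest uncalled; names with several probes or a RefSeq probe; those nearest the threshold; and close pairs. Further ones (Gid8, Slc9a7, Fgf12, Syvn1 and named lncRNA clones among them), the printed sequences and the counts by nearest RefSeq probe were chosen after values were seen. Clones were placed by name, and coordinates are the files' mm9 ones. Replicates shared 0 identical spot values. The number of arrays limits the precision.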

Additional observations from a re-analysis of the deposited data

How the results depend on the processing

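The fit was repeated under 18 other settings, of which 1, the 75th percentile over spots, was chosen after seeing the data and gave 66 higher and 132 lower members. A slide or scan block was not run, because all arrays were on 1 slide in 1 scan. Against 67 higher and 124 lower members, counts moved to 76 lower with quantile normalisation, 62 lower with median scaling, 14 lower with spike-in scaling, 33 higher without scaling, 44 higher and 64 lower without the filter on dim probes, and 21 higher and 10 lower at an adjusted p of 0.01. Over all probes, lower calls moved from 7688 to 4316 (median), 966 (spike-in), 4702 (no filter) and 2015 (adjusted p 0.01), and higher calls from 6423 to 3937 (no scaling) and 2735 (adjusted p 0.01). The median difference of the members was -0.033 with quantile normalisation, -0.014 with median scaling, -0.052 with cyclic loess and 0.41 with spike-in scaling. Leaving out 1 array gave 20 to 42 higher and 16 to 120 lower members (20 and 16 without CPEB3 IgG replicate 1, 22 and 46 without replicate 2, 33 and 63 without control replicate 1, 42 and 120 without control replicate 2), and 2347 to 4682 higher and 2077 to 5375 lower probes in all. With a single array left in a group, that array is assumed to vary like the other group. The replicate block, with the number from the titles (2 pairs; deviations of same-numbered arrays correlated at r = 0.36, and the labels do not say what the numbers mark), gave 74 higher and 173 lower members. Differences of 4930449A18Rik (0.071), 4933431I19Rik (0.053), 4930421J07Rik (0.075) and D530017H19Rik (0.022) changed sign with spike-in scaling. The causes were not tested.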
